A study of Mus musculus with 6 samples.

Results

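The constitutive proteasome subunits are the proteins of the particle that every cell uses to destroy proteins tagged with ubiquitin. The genes described here are Psma1 to Psma7, Psmb1 to Psmb7, Psmc1 to Psmc6 and Psmd1 to Psmd14, chosen by symbol. All 34 listed genes had a probe set naming that gene alone, out of 18193 genes so named on the array. They had 72 probe sets, of which 67 passed the filter on dim signals and were tested. All 34 genes were tested through their brightest probe set, none of which was at the level of the bacterial control probe sets on any array.

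The proteasome is a barrel with a cap at one or both ends. The barrel, the 20S core, stacks rings of alpha subunits, which form its gate, and rings of beta subunits, 3 of which cut proteins. The cap, the 19S particle, has a base with a ring of ATPases that unfold the substrate and push it into the barrel, and a lid that removes the ubiquitin chain. The core and the cap are made from many separate genes, and in mammalian cells the transcription factor NFE2L1 is known for raising them together when proteasomes are blocked. In megakaryocytes the particle also serves the shedding of platelets.

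The samples were mouse megakaryocytes, the cells that shed platelets, grown in differentiation medium from progenitors of fetal livers at embryonic day 13.5 and collected on a gradient of bovine serum albumin. There were 3 arrays labelled Gata-1 Knock Down and 3 labelled Gata-1 Wild Type, each group lettered A, B and C. GATA1 is a DNA-binding protein on which megakaryocytes and erythrocytes depend to mature. The labels used here do not state the allele, the method of the knockdown, the strain, or whether the letters stand for separate livers or cultures, so the spread behind the p-values is that among these samples and could be technical.

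The promoters of the members are shown first for the motifs that bear on the factors measured below. The tables of RefSeq, build GRCm38.p6, held a promoter window of 250 bases before to 50 bases after the start for 28 of the 34 genes. Psmb1, Psmb2, Psmb7, Psmc3, Psmd3 and Psmd7 had none. The core of the antioxidant response element, TGACNNNGC on either strand, to which NFE2L1 and NFE2L2 bind with small Maf proteins, was found in 5 of the 28 genes, or 17.9%, against 14.0% of 27025 genes with a window. These 5 stretches are given in the gene's own direction, with the match in capitals; a match that begins with GC lies on the other strand.
Psmb5 (chr14:54618024-54618052, minus strand): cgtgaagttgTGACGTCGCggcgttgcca
Psmb6 (chr11:70525338-70525356, plus strand): ctaaagagagTGACGGAGC
Psmd9 (chr5:123228149-123228177, plus strand): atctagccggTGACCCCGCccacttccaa
Psmc6 (chr14:45329587-45329615, plus strand): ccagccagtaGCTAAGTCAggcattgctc
Psmd12 (chr11:107479278-107479299, plus strand): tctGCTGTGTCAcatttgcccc
The match began 47, 9 and 31 bases before the start in Psmb5, Psmb6 and Psmd9, and 227 and 247 bases before it in Psmc6 and Psmd12. Among these genes Psmb6 and Psmd9 were lower in knockdown, and Psmb5, Psmc6 and Psmd12 did not pass the test.

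The second motif was the one that GATA factors bind, searched on either strand as AGATAA or AGATAG, or with a leading T as TGATAA or TGATAG. It was found in 4 of the 28 genes, or 14.3%, against 33.0% of all genes with a window. The stretches before the start are printed because GATA1 was the factor knocked down, again with the match in capitals; TTATCT and CTATCT are matches on the other strand. In Psmc6 the match lay after the start and is not printed.
Psmd8 (chr7:29180901-29180923, minus strand): gatgctcTGATAAacacgaacgc
Psmd14 (chr2:61711479-61711504, plus strand): tccacaaggcTGATAActccaaaatt
Psmd9, first match (chr5:123228103-123228128, plus strand): atgggcctatTTATCTctaccgggtc
Psmd9, second match (chr5:123228137-123228162, plus strand): accacgtggtCTATCTagccggtgac
Psmd8 was higher in knockdown, Psmd9 was lower and Psmd14 did not pass the test, so the genes with a match did not share a direction. In Psmd9 the second match and the antioxidant response element core lay near each other without overlapping. The CCAAT box, searched as CCAAT on either strand, was found in 11 of the 28 genes, or 39.3%, against 41.1% of all genes. A match describes the letters of the window and is not a site that the factor was seen to occupy.

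Signals are given as deposited, and log2 fold changes, knockdown minus wild type, are of quantile-normalised log2(signal + 32) values with the standard error of the limma fit. A gene was called at a Benjamini-Hochberg adjusted p of 0.05 over all 31526 probe sets tested. The knocked-down gene itself had signals of 153.5, 143.3 and 194.7 on knockdown A, B and C against 8723.7, 8246.5 and 8495.6 on wild type A, B and C, a log2 fold change of -5.52 (adjusted p = 2.89e-09). Over the 14230 genes tested, 35.5% were called, 18.3% higher and 17.1% lower. Knockdown B stood apart, with a median signal of 137.8 and a highest bacterial control of 132, against medians of 101.6 to 118.4 and controls of 60.7 to 82.2 on the other arrays. The megakaryocyte genes Pf4 and Itga2b, a chemokine of platelet granules and a platelet integrin, had signals of at least 16186 on every array, but 8 of 10 megakaryocyte markers were lower in knockdown and 0 were higher. Their summed signal was 90638 to 110578 in knockdown and 142096 to 152054 in wild type. The markers of other blood cells fell too: macrophage markers summed to 20607 to 21386 against 44488 to 45966 with 11 of 11 lower (Marco was within background), neutrophil and monocyte markers to 2999 to 3101 against 11008 to 11387 with 8 of 9 lower, and mast cell markers to 1224 to 1383 against 4384 to 4931 with 7 of 8 lower. Erythroid markers summed to 3316 to 3585 against 14879 to 15110, with 2 of 7 lower and 1 higher, and hepatocyte markers to 503 to 778 against 1191 to 1303, with 1 of 4 lower (Apoa1 and Fgb were within background). The part that this difference in markers had in the proteasome values was not tested, and in bulk samples fewer cells of a type and less RNA per cell cannot be told apart.

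Of the 34 subunit genes, 4 were higher in knockdown, 6 were lower and 24 did not pass the test, with quantile normalisation. That is 11.8% higher and 17.6% lower, against the 18.3% and 17.1% of all genes. Psmd8, Psmd7, Psmb2 and Psmb3 were the 4 that were higher, and Psmd4, Psmd13, Psmb6, Psmc1, Psmd9 and Psmd1 were the 6 that were lower. The fitted changes ran from -0.47 for Psmd4 to 0.32 for Psmd8 on the log2 scale, and on the brightest probe set 0 of the 34 reached a 2-fold change, against 7.21% of all genes that were called and changed at least 2-fold. On normalised values, the 3 knockdown arrays all lay above the 3 wild-type arrays for 7 members and all below them for 7, against 24.9% and 22.8% of all genes.

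The changes of the members were narrow as well as small. Their median log2 fold change was -0.01 and their interquartile range was 0.144, against 0.03 and 0.586 over all genes tested. The subunit genes are bright, so the same was computed for the 4897 genes at least as bright in wild type as the dimmest member: these had a median of 0.0039, an interquartile range of 0.599, 29.1% higher and 31.1% lower. The cut was the mean wild-type signal of 828 of Psmd9, so these genes were not matched to the members in brightness. The median standard deviation of the members between replicate arrays was 0.0990 in knockdown and 0.0343 in wild type on the log2 scale. Over all genes it was 0.176 and 0.107. It was not computed for the 4897 bright genes, so the part of brightness in this difference was not tested. The median of the members relative to their wild-type means was -0.04 on knockdown A, -0.02 on B and -0.02 on C. Without knockdown A, the lowest of these, the median log2 fold change of the members was -0.0028.

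The direction of these small changes depended on the scaling of the arrays. With the values as deposited, 2 members were called higher and 8 lower with a median of -0.08, and with each array centred on its median 0 were higher and 19 lower with a median of -0.28, against 4 and 6 with quantile normalisation. Over all genes tested, 21.1% were higher and 16.2% lower as deposited, and 8.35% were higher and 20.8% lower with median centring. Among the genes at least as bright as the dimmest member, 27.1% were higher and 32.6% lower as deposited, and 9.17% and 40.4% with median centring. The median over all genes tested was 0.03 with quantile normalisation, 0.12 as deposited and -0.08 with median centring. Relative to the genes of at least their dimmest member's brightness, the median of the members was -0.06 both as deposited and with median centring. These had to be equal, since median centring moved every gene's change as deposited by the same amount. With quantile normalisation the medians were -0.01 for the members and 0.0039 for those genes. Psmd4 was called lower in the main fit and in 15 of 15 alternatives, and no other member was called in all of them. Psmd13 was called in 14, Psmb6, Psmc1 and Psmd8 in 13, Psmb2 in 10, Psmd1 and Psmd7 in 8, Psmb3 in 7 and Psmd9 in 6.

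None of the 7 genes of the alpha ring, which gates the barrel, passed the test, with log2 fold changes from -0.14 for Psma5 (SE 0.07, adjusted p = 0.170) to 0.08 for Psma7 (SE 0.05, adjusted p = 0.274). Psma3 had signals of 6779.3, 7315.1 and 6948.1 on the knockdown arrays and 7608.4, 7201.9 and 7355.9 on the wild-type arrays, groups that overlapped, and a fitted change of 7.5e-05 (SE 0.05, adjusted p = 1.0). Psma1, Psma2, Psma4 and Psma6 had fitted changes of -0.04, 0.05, 0.02 and 0.02. The 7 genes' summed signal was 37605 to 38468 in knockdown and 39795 to 40534 in wild type. These deposited sums did not overlap. In the fit on the values as deposited Psma5 alone of the ring was called, lower at -0.23 (SE 0.07, limma adjusted p = 0.0353). With median centring 5 of the 7 were called lower.

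In the beta ring, Psmb2 and Psmb3, which do not cut proteins, were higher in knockdown with quantile normalisation. Psmb2 had signals of 4840.8, 5689.3 and 5210.8 on knockdown A, B and C against 4694.8, 4634.0 and 4913.5 on wild type A, B and C, and a log2 fold change of 0.23 (SE 0.06, limma adjusted p = 0.0190). The deposited groups of Psmb2 overlapped, since knockdown A lay below wild type C, while the normalised groups did not. Psmb3 had signals of 3344.8, 3500.6 and 3624.6 against 3228.3, 3094.7 and 3235.1, and a log2 fold change of 0.20 (SE 0.06, limma adjusted p = 0.0244). Every knockdown signal of Psmb3 lay above every wild-type signal. The other probe set of Psmb3 had 3289.1, 3798.1 and 3544.7 against 2758.4, 2771.5 and 2718.4, again without overlap, and a log2 fold change of 0.42 (SE 0.07, limma adjusted p = 0.000995). On their brightest probe sets both genes turned to fitted falls with median centring, of -0.05 for Psmb2 and -0.07 for Psmb3, and neither fall was called. Both rises on these probe sets also lost their call with the values as deposited, without the intensity trend, and without wild type A or wild type B. The brightest probe set of Psmb3 further lost its call without wild type C, without knockdown C and with the letter as a block. Its other probe set was still higher as deposited, at 0.36 (limma adjusted p = 0.0020). With median centring that probe set was at 0.16 and not called. Psmb1 at 0.07 (SE 0.06) and Psmb4 at -0.03 (SE 0.04) did not pass the test.

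Of the 3 subunits that cut proteins, Psmb6 alone was called, and it was lower. Psmb6, the subunit with caspase-like activity, had signals of 2496.6, 2532.5 and 3052.4 on knockdown A, B and C against 3968.4, 3532.0 and 3322.8 on wild type A, B and C. Every knockdown signal lay below every wild-type signal, and the log2 fold change was -0.35 (SE 0.09, limma adjusted p = 0.0124). Without wild type A, its highest array, Psmb6 was no longer called, nor without the intensity trend of the limma fit, and its adjusted p ran from 0.00264 to 0.0845 over the 15 alternatives.

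Psmb5, with chymotrypsin-like activity and the target of the drug bortezomib, had signals of 6059.0, 7330.3 and 7079.2 against 7726.3, 7243.5 and 7624.4. The groups overlapped, with knockdown A the lowest of the 6 arrays, and the fitted change was -0.08 (SE 0.07, adjusted p = 0.444). Psmb7, with trypsin-like activity, had 7261.0, 7600.1 and 7776.7 against 8157.1, 8226.9 and 8265.4. Its groups did not overlap, either as deposited or after normalisation. The fitted change of -0.05 (SE 0.04, limma adjusted p = 0.426) did not pass the test. All 3 were called lower with median centring.

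Each cutting subunit has a counterpart that replaces it in the immunoproteasome, the form made by immune cells and under interferon. Psmb9, the counterpart of Psmb6, had signals of 396.0, 404.5 and 459.3 in knockdown against 622.1, 551.2 and 649.5 in wild type, and was lower by a log2 fold change of -0.58 (SE 0.11, limma adjusted p = 0.00285). The groups did not overlap. Psmb8, the counterpart of Psmb5, at -0.08 (SE 0.08) and Psmb10, the counterpart of Psmb7, at -0.16 (SE 0.10) did not pass the test, and Psmb11, the thymus form, was within background on all arrays. The difference Psmb9 minus Psmb6 within an array, on the log2 scale, averaged -2.67 ± 0.0456 (SD, n = 3) in knockdown and -2.44 ± 0.188 in wild type, a shift of -0.23 (exact two-sided permutation test, p = 0.1, the smallest that 3 against 3 arrays allow, and 0.3 adjusted over the 3 pairs). The shift was -0.08 with the values as deposited and -0.12 without wild type C, whose difference of -2.22 stood apart from the -2.54 and -2.56 of wild type A and B. For Psmb10 minus Psmb7 the shift was -0.10 (exact permutation p = 0.4), and it was -0.20 without wild type C, -0.06 without wild type A and -0.05 without wild type B. For Psmb8 minus Psmb5 the shift was -0.0032 (exact permutation p = 1), and with 1 array left out it ran from -0.11 without knockdown A to 0.07 without knockdown C.

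In the ring of 6 ATPases at the base of the cap, Psmc1 alone was called. Psmc1 had signals of 1879.4, 1536.9 and 1598.8 on knockdown A, B and C against 2105.3, 2231.0 and 2172.2 on wild type A, B and C. Every knockdown signal lay below every wild-type signal, and the log2 fold change was -0.34 (SE 0.08, limma adjusted p = 0.00803). Its second probe set was at the level of the bacterial controls on all 6 arrays. Psmc1 was no longer called in a fit on the mean of a gene's probe sets or without the intensity trend. Its limma adjusted p ran from 0.000319 to 0.264 over the 15 alternatives. Psmc5 at -0.13 (SE 0.07, adjusted p = 0.177) and Psmc2, Psmc3, Psmc4 and Psmc6, between -0.03 and 0.01, did not pass the test.

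The other 3 subunits of the base all had negative fitted changes, and 2 of them were called lower. Psmd4, a receptor for ubiquitin chains, had signals of 4298.0, 5134.8 and 4992.9 on knockdown A, B and C against 7422.9, 6656.5 and 7063.7 on wild type A, B and C. Every knockdown signal lay well below the lowest wild-type signal, and the log2 fold change was -0.47 (SE 0.07, limma adjusted p = 0.000725). A second probe set of Psmd4 fell alike, with 3207.6, 2966.3 and 2901.8 against 4404.8, 4833.6 and 5005.5 and a log2 fold change of -0.57 (SE 0.06, limma adjusted p = 7.19e-05). The dimmest of its 3 probe sets had 554.3, 722.9 and 659.8 against 513.8, 639.6 and 561.6, groups that overlapped, and a fitted change of 0.10 (SE 0.13, adjusted p = 0.638).

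Psmd1 and Psmd2 are the large scaffolds on which receptors dock. Psmd1 had signals of 4062.0, 4568.4 and 4623.5 in knockdown against 5377.0, 5250.6 and 5484.1 in wild type, without overlap, and was lower by a log2 fold change of -0.19 (SE 0.06, limma adjusted p = 0.0398). Psmd2 had 6285.0, 7393.7 and 6522.4 against 7580.8, 7945.4 and 9036.7, also without overlap, but its normalised groups overlapped and its fitted change of -0.20 (SE 0.07, adjusted p = 0.0727) did not pass the test. Psmd1 lost its call without wild type A, B or C and without knockdown C. It also lost it with no filter, with the letter as a block and without the intensity trend. Psmd2 was called lower as deposited (limma adjusted p = 0.0254), with median centring (limma adjusted p = 0.00161), and without wild type A or knockdown B.

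**Figure D1:**
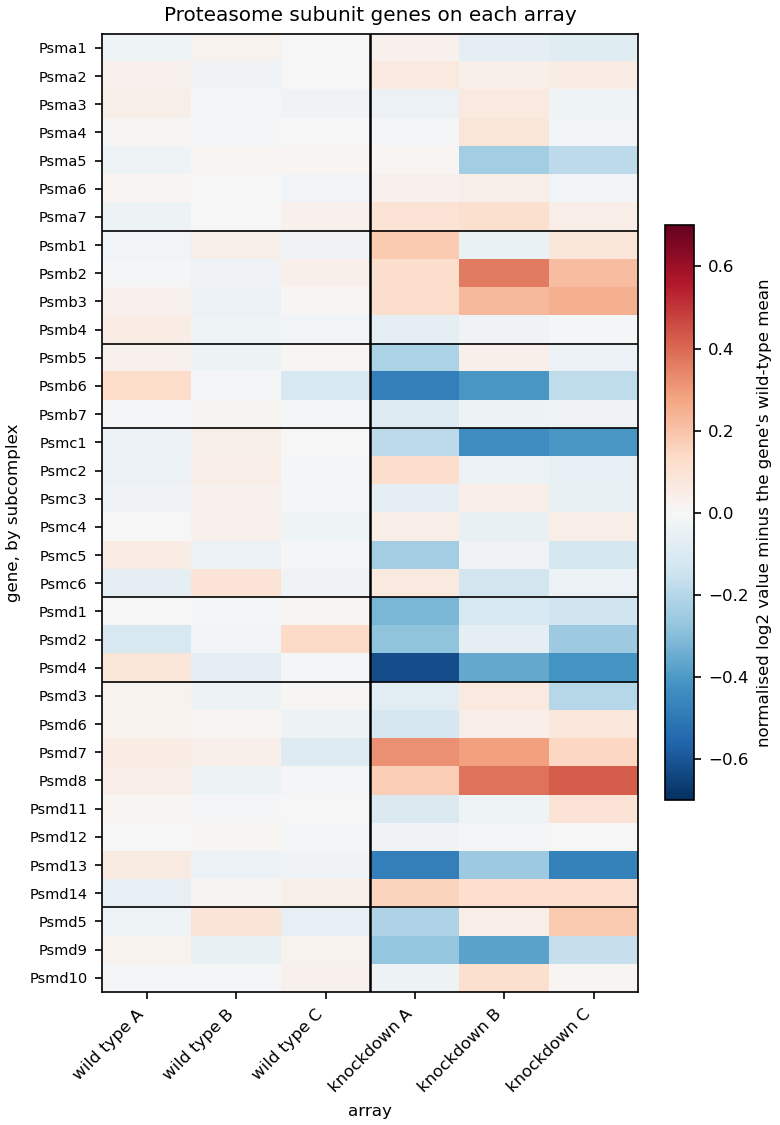
Normalised log2 value of each subunit gene (rows, grouped by subcomplex) on each of the 6 arrays (columns), as the difference from the gene's wild-type mean; red is above it and blue below. The bluest rows on the 3 knockdown arrays are Psmd4, Psmd13, Psmb6 and Psmc1, with fitted changes from -0.47 to -0.34. These genes and Psmd1, at -0.19, were called lower under all 3 scalings. Most other rows stay pale on all arrays.

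The lid, which takes ubiquitin chains off the substrate, held the highest rises and one of the largest falls. Psmd8 had signals of 6607.8, 7638.6 and 8022.4 on knockdown A, B and C against 6462.0, 6031.5 and 6269.1 on wild type A, B and C. Every knockdown signal lay above every wild-type signal, and the log2 fold change was 0.32 (SE 0.07, limma adjusted p = 0.00405). Psmd7, the partner of the deubiquitinase Psmd14, had 1893.5, 1800.6 and 1669.0 against 1578.1, 1555.1 and 1424.1, also without overlap, and a log2 fold change of 0.25 (SE 0.08, limma adjusted p = 0.0287). Neither rise was called with median centring or without the intensity trend. Psmd7 also lost its call in a fit on the mean of its probe sets, without any 1 of the wild-type arrays and without knockdown B. Psmd14, the deubiquitinase itself, had a fitted change of 0.13 (SE 0.05, adjusted p = 0.0567) and did not pass the test.

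Psmd13, another lid subunit, was lower on its brightest probe set, with signals of 1642.2, 1866.9 and 1645.5 in knockdown against 2460.1, 2271.1 and 2298.3 in wild type. The groups did not overlap, and the log2 fold change was -0.40 (SE 0.08, limma adjusted p = 0.00275). It was also the 1 member of 19 with several tested probe sets whose probe sets were called in opposite directions. The dim probe set concerned had 156.2, 230.2 and 140.2 in knockdown against 102.7, 41.5 and 26.4 in wild type, where 2 of 3 arrays were at the level of the bacterial controls, and a log2 fold change of 1.14 (SE 0.33, limma adjusted p = 0.0235). The other 2 probe sets of Psmd13 were at -0.14 and -0.27 and did not pass the test, and in a fit on the mean of its probe sets Psmd13 was at 0.08 and not called.

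Psmd6 gave the widest disagreement within a gene. Its brightest probe set had signals of 4316.5, 4778.9 and 4974.0 on knockdown A, B and C against 5045.9, 4966.6 and 4904.5 on wild type A, B and C. These groups overlapped, and the fitted change was 0.0022 (SE 0.06, adjusted p = 0.984). Its other probe set had 453.7, 189.3 and 199.7 against 3102.0, 3287.6 and 3300.4, a log2 fold change of -3.55 (SE 0.26, limma adjusted p = 4.54e-06), or 11.7-fold lower in knockdown. All 3 knockdown arrays were far below wild type there and still above the bacterial controls. In a fit on the mean of both probe sets Psmd6 was called lower at -1.77, past a 2-fold change. The change of the dimmer probe set was -3.48 with the values as deposited and -3.68 with median centring. The positions of the probes on the transcript were not used here, so which part of the Psmd6 RNA each probe set reads is not given.

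Psmd11 showed a smaller disagreement of the same kind. Its brightest probe set, at -0.01 (SE 0.05), did not pass the test, and 1 of its 6 tested probe sets was lower. That probe set had 2305.7, 2029.7 and 2004.7 in knockdown against 3100.0, 3087.6 and 3219.2 in wild type. These groups did not overlap, and the log2 fold change was -0.51 (SE 0.07, limma adjusted p = 0.000222). Psmd3 at -0.07 (SE 0.08) and Psmd12 at -0.01 (SE 0.05) did not pass the test. The values of the second probe sets of Psmb3, Psmd4, Psmd6, Psmd9 and Psmd11 and those of Psmd1 and Psmd2 were singled out after they were seen.

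**Figure D2:**
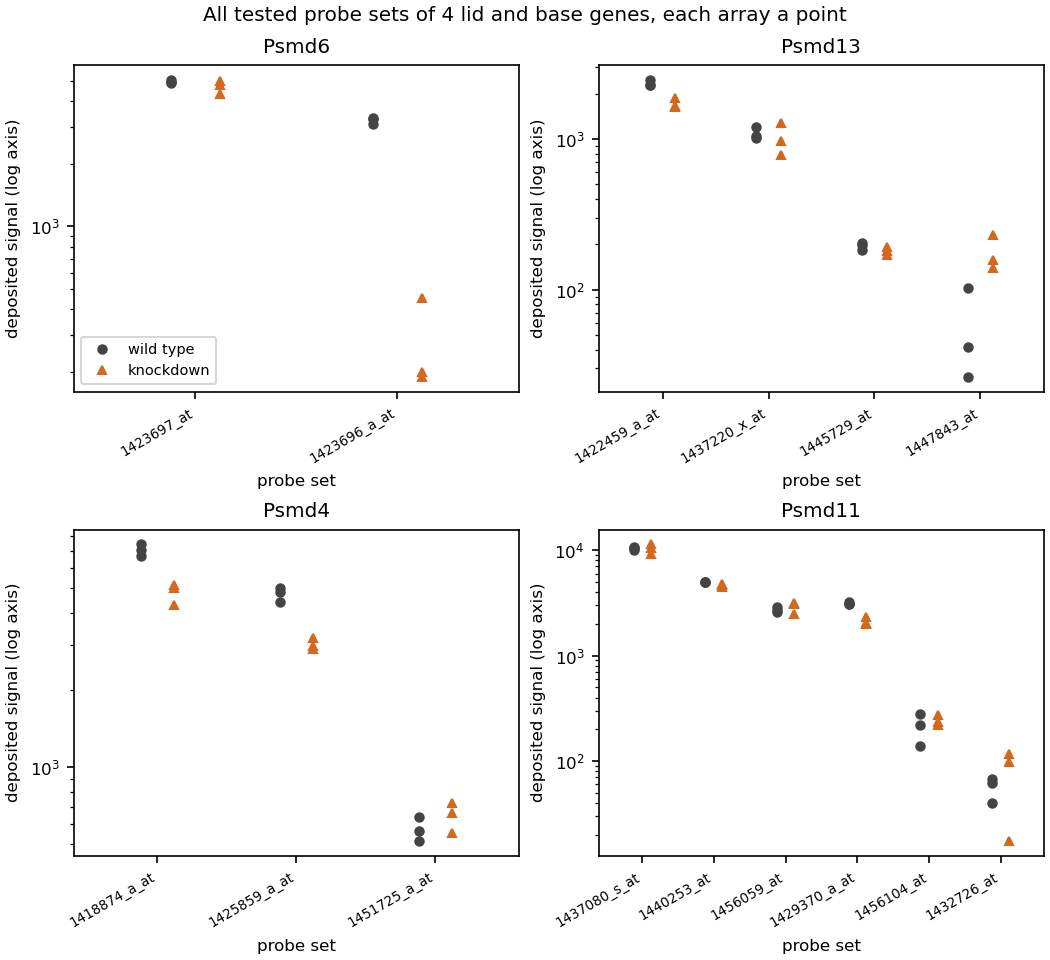
Deposited signal (y axes, log scale) of every tested probe set of Psmd6, Psmd13, Psmd4 and Psmd11 (x axes), with each array a point, circles for wild type and triangles for knockdown. For Psmd6 the brightest probe set overlaps between the groups while the other lies at 189.3 to 453.7 in knockdown and 3102.0 to 3300.4 in wild type.

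Over all members, 6 of the 67 tested probe sets were higher and 9 were lower, against 16.1% higher and 14.3% lower of all probe sets tested, 30.4% in all. Of the genes that assist assembly of the base and carry Psmd names, Psmd9 was lower, with signals of 717.8, 646.2 and 762.7 in knockdown against 843.9, 801.3 and 838.7 in wild type. The groups did not overlap, and the log2 fold change of -0.27 (SE 0.09) had a limma adjusted p of 0.0473. It was no longer called with the values as deposited or without knockdown A, knockdown B or any 1 of the wild-type arrays. The call was also lost in a fit on the mean of its probe sets, with the letter as a block and without the intensity trend. Its other tested probe set had 221.0, 240.8 and 184.8 in knockdown against 115.1, 187.3 and 151.3 in wild type. Those groups overlapped, and the fitted change was 0.28 (SE 0.19, limma adjusted p = 0.307). Psmd5 at 0.0039 (SE 0.10) and Psmd10 at 0.03 (SE 0.08) did not pass the test.

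Several genes that build and regulate the particle had larger fitted changes than any subunit gene's brightest probe set. Of 12 tested assembly chaperones, activators and inhibitors, 5 were higher and 2 were lower, with a median of 0.10. That is 41.7% and 16.7%, against 18.3% and 17.1% of all genes tested. Among the 4897 genes at least as bright as the dimmest member, 29.1% were higher and 31.1% lower. Psmg4, which with Psmg3 assists assembly of the alpha ring, had signals of 1378.0, 1370.2 and 1476.2 on knockdown A, B and C against 750.9, 685.5 and 750.6 on wild type A, B and C. The groups were far apart, and the log2 fold change was 0.89 (SE 0.08, limma adjusted p = 1.74e-05). Psmg1 and Psmg2, the other pair of alpha ring chaperones, were higher by 0.48 (SE 0.08) and 0.46 (SE 0.07). Psmg3 was higher by 0.43, and Psme3, a nuclear activator, by 0.33.

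Pomp, the chaperone of beta ring assembly, went the other way. It had signals of 5123.1, 3973.2 and 4017.5 in knockdown against 5934.3, 6001.1 and 6617.8 in wild type, without overlap, and a log2 fold change of -0.41 (SE 0.09, limma adjusted p = 0.00712). Psmf1, an inhibitor of the core, had a log2 fold change of -0.59 (SE 0.08, limma adjusted p = 0.000363). Psme1, a subunit of the activator that works with the immunoproteasome, had a fitted change of 0.11 (SE 0.06, adjusted p = 0.194). With the values as deposited 5 genes of the list were higher and 3 lower, and with median centring 1 was higher and 3 lower.

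Of 7 tested other cap subunits, shuttling receptors and deubiquitinases, 3 were higher and 1 was lower. That is 42.9% and 14.3%, against 18.3% and 17.1% of all genes tested. Ubqln1, a shuttle for ubiquitinated proteins, was higher by 0.34 (SE 0.06) on its brightest probe set but at -0.00072 and not called in a fit on the mean of its probe sets. Uchl5, a deubiquitinase of the cap, was higher by 0.21 (SE 0.05), and Sem1, a small lid subunit, by 0.14 (SE 0.05). Ubqln2, a relative of Ubqln1, was lower, with a log2 fold change of -0.24 (SE 0.07). Uchl5 and Sem1 turned to fitted falls of -0.06 and -0.15 with median centring, neither of them called in that direction. With the values as deposited 1 gene of the list was higher and 1 lower, and with median centring 0 were higher and 2 lower. Of the ubiquitin genes and activating enzymes only Uba6 was tested, at 0.13 (SE 0.13).

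Nfe2l1 itself did not pass the test, with signals of 1049.4, 1081.5 and 1128.5 in knockdown against 1142.2, 1060.7 and 1087.1 in wild type and a fitted change of -0.02 (SE 0.08, adjusted p = 0.857). The groups overlapped. Of the 11 tested genes for NFE2L1, its processing and its partners, 0 were higher and 4 were lower, and with median centring 6 were lower. The 4 are 36.4%, against 17.1% of all genes tested and 31.1% of the genes at least as bright as the dimmest member. Syvn1, a ubiquitin ligase of the endoplasmic reticulum, was lower at -0.49 (SE 0.06), Ufd1 at -0.38 (SE 0.09) and Vcp at -0.21 (SE 0.04); the last of these is the ATPase that draws NFE2L1 out of the membrane with Ufd1 as its cofactor. Nfe2l2, the related factor of the oxidative stress response, was lower at -0.18 (SE 0.06, limma adjusted p = 0.0387) on its brightest probe set and at 0.09 in a fit on the mean of its probe sets.

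3 other complexes of many subunits were set beside the proteasome. Over all genes tested, 18.3% were higher and 17.1% lower with quantile normalisation. On their brightest probe sets, all 11 tested genes of eIF3, the translation initiation factor, were higher with quantile normalisation, by 0.31 to 0.60 with a median of 0.43, although only 1 was called with median centring, where the median was 0.16. Eif3d, at 0.55 on its brightest probe set, was at -0.12 and not called in a fit on the mean of its probe sets. Eif3e, the highest, had signals of 11882.0, 14257.6 and 14175.7 in knockdown against 8991.3, 8561.5 and 8903.3 in wild type, without overlap. Of the 8 genes of the CCT chaperonin, which folds actin and tubulin, 7 were higher with a median of 0.39, and 2 with median centring at a median of 0.15. Tcp1 was highest at 0.58 (SE 0.05).

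The COP9 signalosome, whose architecture resembles that of the lid, had 3 of 9 genes higher, or 33.3%, against 18.3% of all genes. Its median was 0.09 under quantile normalisation and -0.07 under median centring, where 1 gene was higher and 1 lower. Cops7a was higher by 0.63 (SE 0.07), Gps1 by 0.45 (SE 0.07) and Cops4 by 0.39 (SE 0.09). The median of the proteasome members lay below that of these 3 complexes under each of the 3 scalings: it was -0.01, -0.08 and -0.28 with quantile normalisation, as deposited and with median centring, against 0.43, 0.36 and 0.16 for eIF3. Median centring moved every gene's change as deposited by the same amount, so the gaps between the lists were bound to be equal under these scalings. No test was made of the difference between the lists.

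**Figure D3:**
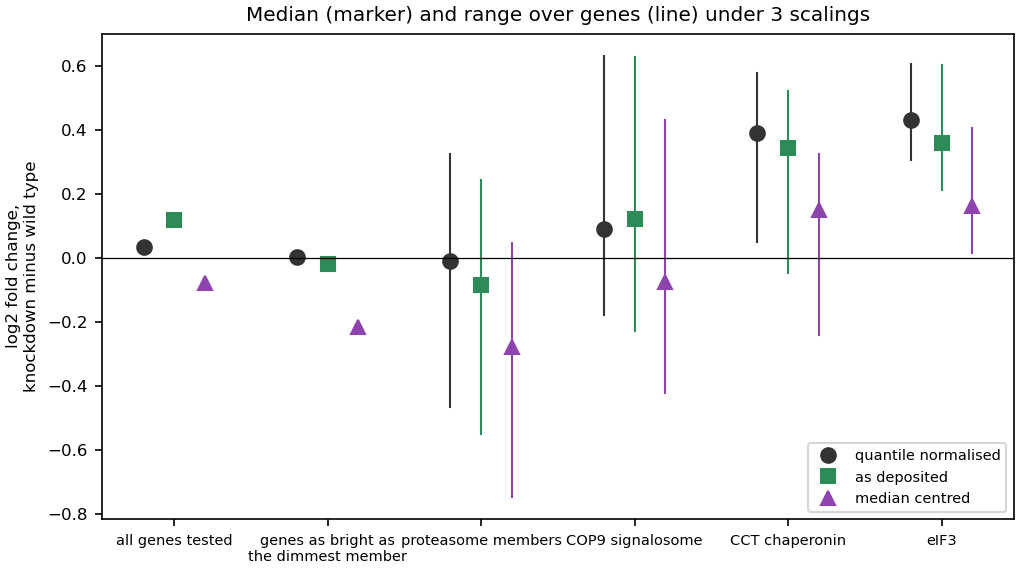
Median log2 fold change, knockdown minus wild type (y axis), for all genes tested, genes as bright as the dimmest member, the proteasome members and 3 other complexes (x axis), under quantile normalisation, as deposited and median centred; lines span the lowest to the highest gene of a list. The proteasome medians are -0.01, -0.08 and -0.28, and those of eIF3 are 0.43, 0.36 and 0.16; the COP9 median changes sign, from 0.09 and 0.12 to -0.07 with median centring.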

How the data were processed

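Megakaryocyte RNA from 3 knockdown and 3 wild-type samples was measured on 1 Affymetrix mouse array each, grouped by title. The deposited table gives, for 45101 probe sets, a linear intensity, a scale read from the values themselves. The mean of each deposited array, trimmed by 2% at each end, was 500.0, so the authors had scaled them. The signal software is not given in the sources used here. Precision is limited by having 3 arrays a group.

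The arrays' median log2(signal + 32) spanned 0.346, above a limit of 0.2, so log2 values were quantile normalised. The 64 control probe sets and those with a mean below the 30th percentile were left out of the test. Groups were compared with limma 3.58.1 in R 4.3.3 (lmFit, eBayes with an intensity trend, two-sided, group only) and Benjamini-Hochberg adjustment over 31526 probe sets at 0.05. Fold changes with the offset understate those of dim genes. The fit was tested on simulated data.

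A platform annotation named 1 gene for 34958 probe sets and several for 932. A gene is its brightest probe set naming it alone. Background is the highest of 27 bacterial control probe sets on an array. The text names all members and gives every array for the cutting subunits, the called members with the largest changes and any with opposite calls. It also names Gata1, Nfe2l1, Nfe2l2, Psmb8, Psmb9, Psmb10, Psme1 and Pomp, and of each other list at most 4 further called genes. Psmg3 and Psme3 were named after their values were seen. Members, lists and tests were chosen with earlier results of these data known. Adrm1 and Psme2 had no probe set of their own here. Alternatives were offsets of 1 and 100, deposited values, median centring, no filter, a 50th percentile filter, the mean of a gene's probe sets, no trend, the letter as a block, and each array left out.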

Additional observations from a re-analysis of the deposited data

How the results depend on the processing

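Offsets of 1 and 100 kept the call and direction of all 34 members. With the values as deposited, 2 members were higher and 8 lower with a median of -0.083. With median centring 0 were higher and 19 lower with a median of -0.28, 2609 probe sets were higher and 5333 lower, against 5062 and 4515 in the main fit and 6259 and 4167 as deposited. Median centring turned Psma3 to -0.27, Psma4 to -0.27, Psma6 to -0.25, Psmb2 to -0.055, Psmb3 to -0.066, Psmd6 to -0.28, Uchl5 to -0.057 and Sem1 to -0.15. The shift Psmb9 minus Psmb6 was -0.081 under both scalings, against -0.23 in the main fit. A difference within an array is the same as deposited and with median centring by construction. The mean of a gene's probe sets gave a median of -0.058 and turned Psmd6 to -1.77, Psmd13 to 0.080, Nfe2l2 to 0.091, Ubqln1 to -0.00072 and Eif3d to -0.12. Without the intensity trend 0 members were higher and 2 lower, and 4004 and 3726 probe sets. With 1 array left out, 1 to 5 members were higher and 4 to 6 lower, against 3918 to 5517 and 3465 to 5192 probe sets. The median of the members ranged from -0.021 to -0.0028. The count of members called higher was 1 without wild type A or wild type B and 2 without wild type C. Arrays of the same letter did not deviate together (correlations of -0.042, -0.017 and -0.0096). With 3 arrays a group this cannot show whether arrays of a letter were prepared together. With the replicate block 3 members were higher and 4 lower, and 4591 and 4166 probe sets. Sign changes of genes called in neither fit were not counted as reversals. The causes were not tested.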
